A study of Rattus norvegicus with 9 samples.

Results

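Bbof1, Aoc3 and Lrrc23 are 3 genes whose summed levels were low in the CD4+ T cells of arthritic rats, taken from a total of 37540 genes and unnamed loci. They were chosen by their measured TPM (transcript abundance scaled to length and depth, with the same total in every library), which was lower in the arthritic libraries than in the normal ones, so those differences are described here without a test. All transcripts carrying one of the 3 names in the reference annotation were counted, together with assembled transcripts of a locus that held only that name. This gave 13 of 80092 transcripts: 4 of Bbof1, 1 of Aoc3 and 8 of Lrrc23. For Bbof1 a single assembled transcript held nearly all of the difference, and for Lrrc23 the difference ran along nearly the whole gene. For Aoc3 nearly all of it lay in an assembled transcript outside these 13, because the locus holds 4 gene names. A read-through transcript crosses the exons of Aoc3. Once it was counted, combination libraries overlapped the normal ones in exons 2 and 3. For Bbof1 the low value rests on 1 intronic exon that overlaps a transcript of the opposite strand, whose reads cannot be told apart from it, and the reference transcripts of Bbof1 were higher in the model than in the normal libraries.

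The libraries came from CD4+ T cells of the blood of SD rats aged 8 to 10 weeks. The combination group (3 libraries) was from CIA rats, read here as collagen-induced arthritis, that received a combination of compounds for 4 weeks. The model group (3 libraries) is taken as CIA rats without that treatment, which the labels call only "model", and the normal group (3 libraries) as rats without arthritis. Neither the compounds, their doses, the way the CD4+ cells were selected, nor whether each library is a separate animal is given, so the spread between libraries may be technical.

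Bbof1 encodes basal body-orienting factor 1, a coiled-coil protein of the basal bodies of multiciliated cells, where it helps to keep motile cilia aligned. Lrrc23 encodes a leucine-rich repeat protein of the radial spokes, the struts inside motile cilia and sperm tails, and mouse sperm need it to swim. Aoc3 encodes vascular adhesion protein 1, an amine oxidase on the surface of endothelial cells, smooth muscle cells and adipocytes, which oxidises primary amines and helps lymphocytes to leave the blood in inflamed tissue. T cells carry no motile cilia, and none of the 3 proteins is a usual T cell marker.

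The sequences before the annotated starts are shown because of where the coverage lay. In the normal libraries most Bbof1 coverage was allotted to an exon far inside the gene, and exon 1 of Lrrc23 was nearly empty. RefSeq promoters of the rat build GRCr8 were matched for 2 of the 3 genes, Bbof1 on the plus strand at chr6:109786113-109786362 and Lrrc23 on the minus strand at chr4:159277765-159278014. Each holds the 250 bases before the start, 5′ to 3′, and capitals mark GGGCGG (the GC box) and GTTGCC (the core of the X-box bound by RFX factors), or their reverse complements.
Bbof1: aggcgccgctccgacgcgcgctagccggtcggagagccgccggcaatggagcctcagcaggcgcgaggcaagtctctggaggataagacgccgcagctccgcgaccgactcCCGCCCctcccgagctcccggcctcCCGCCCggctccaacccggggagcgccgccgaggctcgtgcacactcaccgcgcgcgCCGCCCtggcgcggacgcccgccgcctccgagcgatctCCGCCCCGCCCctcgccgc
Lrrc23: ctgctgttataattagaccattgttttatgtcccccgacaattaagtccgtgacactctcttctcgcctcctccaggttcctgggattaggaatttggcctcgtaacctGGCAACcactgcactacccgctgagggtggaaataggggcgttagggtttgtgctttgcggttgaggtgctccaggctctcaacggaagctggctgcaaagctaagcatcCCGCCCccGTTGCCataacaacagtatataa
The Bbof1 promoter had 78% G and C and 5 GC boxes, the last 2 of which overlap by 1 base. The Lrrc23 promoter had 51.6% G and C, 1 GC box and 2 X-box cores, at 141 to 136 and at 23 to 18 bases before the start. At least 1 GC box stood in 30.5% of 33469 RefSeq promoters of this length, and at least 1 X-box core in 9.89%, with 2 or more in 0.801%. The other letters searched on both strands were GTAAACA (forkhead), CCGGAAG (ETS), TGACGT (CRE), CACGTG (E-box) and TGACTCA (AP-1), and none of them lay in either window.

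T cell genes were expressed in all libraries, beside markers of other blood cells. Summed over 7 of 8 T cell genes matched by name, TPM was 1790 to 2187 in the combination, 1456 to 1956 in the model and 1990 to 2667 in the normal libraries. Cd4, the coreceptor that defines these cells, was at 98.1 to 142 TPM in the combination, 76.5 to 186 in the model and 203 to 235 in the normal libraries. Monocyte markers summed to 275 to 540 TPM in the combination libraries, 58.9 to 167 in the model and 23.6 to 131 in the normal libraries, and platelet markers to 69.2 to 115 TPM in the combination, 16.6 to 32.6 in the model and 8.5 to 28 in the normal libraries. Erythroid markers summed to 258 to 862 TPM in the combination libraries, 2396 to 16140 in the model and 58.0 to 1115 in the normal libraries. Model library 2 stood apart from the other model libraries: without it, 2654 genes passed in the model against normal contrast, where the fit of all 9 libraries passed 609. Aligned depth was 7.52 to 10.1 gigabases, no read counts were used, and in bulk RNA fewer cells of a type and less RNA per cell cannot be told apart.

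**Figure D1:**
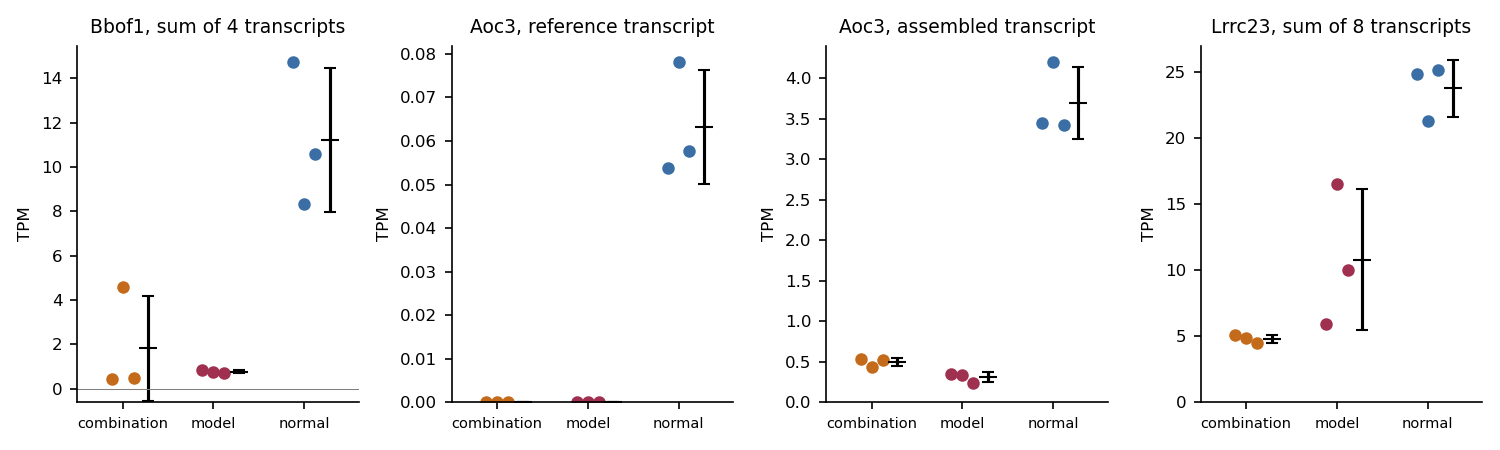
TPM of each gene by library in the combination, model and normal groups (points), with the mean and SD of 3 libraries beside them (bars); the y axes differ. All 6 arthritic libraries lie below the 3 normal libraries in each panel, and the second panel reaches only 0.078 TPM.

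Bbof1 (chr6:108123816-108149607, plus strand, rn6) was at 0.421, 4.57 and 0.460 TPM in the combination libraries, 0.837, 0.732 and 0.710 TPM in the model libraries, and 14.7, 8.31 and 10.6 TPM in the normal libraries. Combination library 2 stood above the other combination libraries, and no arthritic library reached the lowest normal one. The mean was 1.82 ± 2.38 TPM in the combination, 0.759 ± 0.068 in the model and 11.2 ± 3.25 in the normal group (SD, n = 3 each). On the log2(TPM + 1) scale the difference was -2.76 ± 0.48 (SE) for model minus normal and -2.40 ± 0.48 for combination minus normal. All 6 arthritic libraries lay below all 3 normal libraries for 5.75% of 14485 genes tested. Bbof1 was chosen as low in arthritis, so this order was not tested.

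One assembled transcript, MSTRG.14632.3, held 96.1 to 98.3% of the Bbof1 TPM in the normal libraries and 103% of the difference between the model and normal means. It was at 0.092, 4.25 and 0.092 TPM in the combination libraries, 0.121, 0.113 and 0.046 TPM in the model libraries, and 14.5, 7.99 and 10.3 TPM in the normal libraries. It begins 7931 bases after the reference start, with an exon of 1987 bases at chr6:108131747-108133733 that lies in the intron between reference exons 4 and 5 and in neither reference transcript. That exon held 97.8 to 99.5% of the transcript's coverage in the normal libraries. Its share was 13.3, 96.2 and 65.7% in the combination libraries and 46.15, 8.43 and 22.5% in the model libraries. The reference shares the exons after it. With all transcripts added, these had a coverage of at most 0.445 per aligned gigabase in the normal libraries. The highest value in any library was 1.58, in exon 7 of the assembled transcript in model library 1.

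The full-length reference transcript, ENSRNOT00000089242, had the opposite order. Its level was 0.328, 0.314 and 0.323 TPM in the combination libraries, 0.716, 0.568 and 0.664 TPM in the model libraries, and 0.245, 0.271 and 0.310 TPM in the normal libraries. The 3 model libraries were the highest, and the combination libraries lay just above the normal ones. With a mean under 1 TPM it was below the filter and was not tested. The other reference transcript, ENSRNOT00000063900, was above 0 only in model library 2 (0.051 TPM), and the short MSTRG.14632.4 reached at most 0.056 TPM.

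The intronic exon overlaps an unnamed transcript of 1 exon on the opposite strand, MSTRG.14633.1 (chr6:108131832-108133984), over 1902 bases. That transcript was at 26, 16.3 and 5.95 TPM in the combination libraries, 20.7, 32.1 and 21.7 TPM in the model libraries, and 3.81, 16.4 and 8.40 TPM in the normal libraries. The model libraries lay above the normal ones, and the combination libraries overlapped both. The library kit named in the labels does not mark strand, so reads from these 2 transcripts cannot be told apart.

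Coverage of the 1902 shared bases was computed per aligned gigabase, which is the scale of FPKM (fragments scaled to transcript length and depth). On the Bbof1 strand it was 0.011, 4.00 and 0.065 in the combination libraries, 0.057, 0.0093 and 0.0091 in the model libraries, and 14.4, 7.80 and 10.5 in the normal libraries. With both strands added it was 14, 13.6 and 3.95 in the combination libraries, 12.9, 18.8 and 11.6 in the model libraries, and 16.7, 17.6 and 15.7 in the normal libraries. Added together, all combination libraries and model libraries 1 and 3 still lay below every normal library. Model library 2 lay above them, so the model and normal groups overlapped, and combination library 3 was the lowest of the 9. The sum of Bbof1 and MSTRG.14633.1 was 26.5, 20.9 and 6.41 TPM in the combination libraries, 21.6, 32.8 and 22.4 TPM in the model libraries, and 18.5, 24.7 and 19.0 TPM in the normal libraries. On that sum the log2 difference of model minus normal was 0.28, the other direction, and that of combination minus normal was -0.39. The TPM sum also depends on transcript length, 3307 bases for MSTRG.14632.3 and 2153 for MSTRG.14633.1. Coverage of the shared bases on both strands does not. It averaged 10.5 ± 5.68 in the combination, 14.4 ± 3.81 in the model and 16.7 ± 0.958 in the normal libraries (SD). On that measure the model mean stayed below the normal mean. The TPM sum was added after the values were seen.

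**Figure D2:**
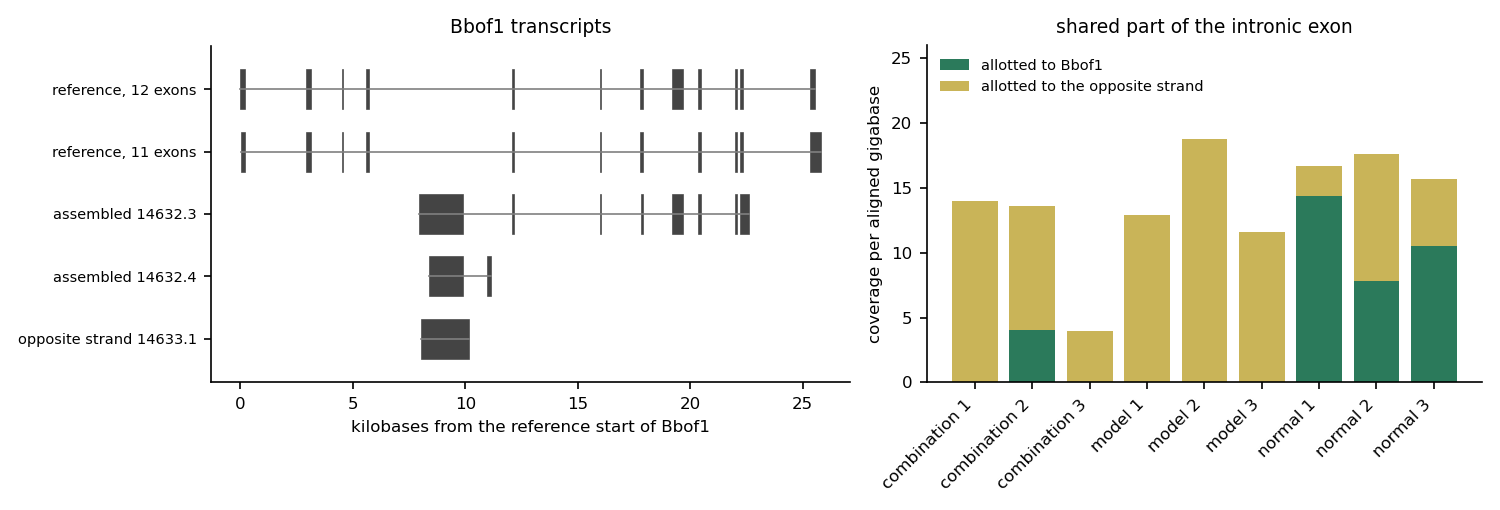
Left, exons (boxes) of the Bbof1 transcripts and the opposite-strand transcript, in kilobases from the reference start. Right, coverage per aligned gigabase of the 1902 shared bases in each library, stacked by the strand to which it was allotted. The normal libraries hold 7.80 to 14.4 on the Bbof1 strand, and the stacked totals of the model and normal libraries overlap through model library 2 only.

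Among the chosen genes only Lrrc23 was tested, in the combination against model contrast, and the model libraries are among those that chose it. For Bbof1 the combination minus model difference was 0.36 ± 0.48 (SE) on the log2(TPM + 1) scale. Combination library 2 set its direction: without that library it was -0.29. Both values are given without a test, because every other arthritic library was under 1 TPM. In this contrast 3.9% of the 14485 genes passed an adjusted p of 0.05 in either direction.

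Aoc3 (chr10:89251370-89259313, plus strand, rn6) lies in a locus with 4 gene names, so by the rule its only transcript was the reference one, ENSRNOT00000076820. That transcript was listed at 0 in all 6 arthritic libraries and at 0.054, 0.078 and 0.058 TPM in the normal libraries, with a mean of 0.021 TPM that missed the filter. Nearly all of the signal over Aoc3 belonged instead to an assembled transcript of the same locus, MSTRG.3382.6 (chr10:89248525-89259313). It contains all 3937 bases of the reference transcript and adds 5′ sequence, to 5 exons and 5496 bases.

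MSTRG.3382.6 was at 0.533, 0.438 and 0.518 TPM in the combination libraries, 0.351, 0.342 and 0.236 TPM in the model libraries, and 3.45, 4.21 and 3.42 TPM in the normal libraries. The normal libraries, by which the gene was chosen, were the highest. All combination and model libraries were under 1 TPM. Counted with the reference transcript, the level of Aoc3 averaged 0.496 ± 0.051 TPM in the combination, 0.310 ± 0.064 in the model and 3.76 ± 0.458 in the normal group (SD, n = 3 each). The log2(TPM + 1) difference was -1.86 ± 0.17 (SE) for model minus normal and -1.66 ± 0.17 for combination minus normal. MSTRG.3382.6 held 98.2% of the model minus normal difference and the reference transcript 1.83%. Combination minus model was 0.19 ± 0.17 and is given without a test: both groups averaged under 1 TPM, and the gene passed the filter only through the normal libraries, by which it was chosen.

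The exons of MSTRG.3382.6 differed unequally. Its upstream exon (chr10:89248525-89248801), which overlaps no other exon of the locus, had a coverage of 4.99, 4.49 and 5.21 per gigabase in the combination libraries, 2.84, 3.63 and 2.32 in the model libraries, and 6.03, 6.44 and 6.93 in the normal libraries. The combination libraries lay between the other groups there, which was not tested. Over the exon that follows, the part that is reference exon 1 of Aoc3 (chr10:89251370-89253049) had 0, 0 and 0 in the combination libraries, 0.095, 0 and 0 in the model libraries, and 2.92, 3.72 and 2.84 in the normal libraries from Aoc3 transcripts. The upstream exon therefore held 77.6 to 87.9% of the transcript's coverage in the combination libraries, 65.7 to 92.2% in the model libraries and 12.9 to 16.5% in the normal libraries.

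A reference read-through transcript, ENSRNOT00000077603 (named Rn50_10_0892.1, 25 exons), crosses the same exons and was allotted part of their coverage. With all transcripts added, reference exon 1 had 2.24, 0.319 and 2.23 in the combination libraries, 0.184, 2.21 and 0.148 in the model libraries, and 2.93, 3.77 and 2.87 in the normal libraries. The normal libraries were still the highest, but 3 of the 6 arthritic libraries came close to them. The part of the exon before the reference start (chr10:89250088-89251369) had 0.165, 0.559 and 0.164 in the combination libraries, 0.553, 0.167 and 0.507 in the model libraries, and 3.05, 3.70 and 2.92 in the normal libraries. Each transcript gives 1 average for its whole exon, so these values cannot show whether the 5′ part differed more.

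The 3′ exons of Aoc3 were compared in the same way. Reference exon 4 (chr10:89257473-89259313), the longest, had 0.154, 0.141 and 0.325 in the combination libraries, 0.124, 0.10 and 0.054 in the model libraries, and 0.529, 0.625 and 0.685 in the normal libraries. No arthritic library reached the normal ones in that exon. In exons 2 and 3 they overlapped: combination library 3 had 1.20 in exon 2, above the normal libraries (1.06, 0.665 and 0.672), and combination libraries 1 and 3 had 1.55 and 1.59 in exon 3, among the normal values of 1.46, 1.47 and 1.71.

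**Figure D3:**
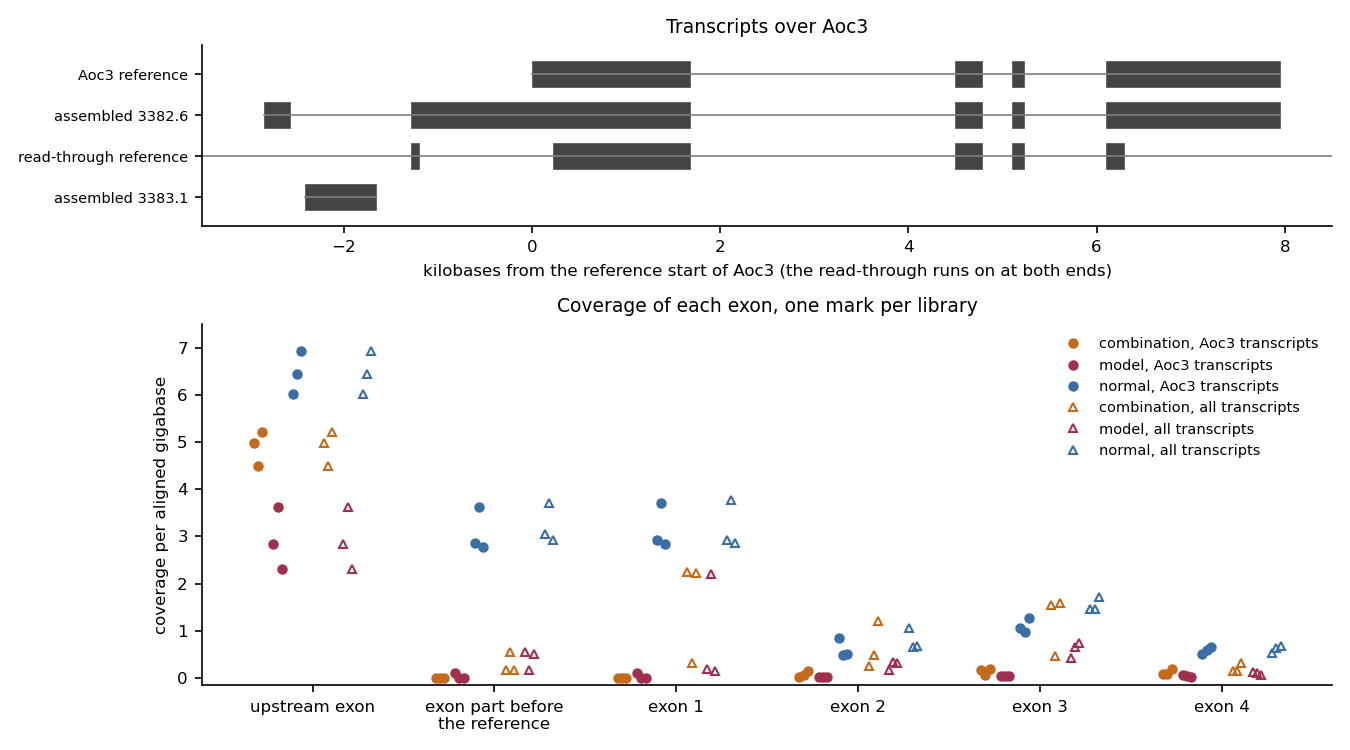
Top, exons (boxes) of the transcripts over Aoc3, in kilobases from its reference start. Bottom, coverage per aligned gigabase of each exon in the combination, model and normal libraries, counting Aoc3 transcripts (filled circles) or all transcripts (open triangles); the normal libraries are highest in exon 1 and its 5′ part either way, while exons 2 and 3 overlap once all transcripts are counted.

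Between the first 2 exons of MSTRG.3382.6 lies another unnamed transcript of 1 exon, MSTRG.3383.1. It was at 9.59, 6.26 and 6.16 TPM in the combination libraries, 1.08, 2.58 and 2.78 TPM in the model libraries, and 4.34, 4.39 and 5.83 TPM in the normal libraries. Combination minus model was 1.43 ± 0.29 (SE) on the log2(TPM + 1) scale over transcripts, which did not pass (limma, adjusted p = 0.0969), and 0.127% of 36340 transcripts passed in either direction.

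Lrrc23 (chr4:157294195-157304653, minus strand, rn6) was at 5.12, 4.84 and 4.50 TPM in the combination libraries, 5.92, 16.5 and 10.0 TPM in the model libraries, and 24.9, 21.3 and 25.2 TPM in the normal libraries. The combination libraries were close together, the model libraries spread nearly to the normal range through library 2, and the 3 groups did not overlap. The mean was 4.82 ± 0.312 TPM in the combination, 10.8 ± 5.34 in the model and 23.8 ± 2.16 in the normal group (SD, n = 3 each). The log2(TPM + 1) difference was -1.17 ± 0.29 (SE) for model minus normal and -2.09 ± 0.29 for combination minus normal. Without model library 2 the model minus normal difference was -1.50, and without model library 1 it was -0.83.

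For combination minus model the difference was -0.92 ± 0.29 (SE), with a 95% interval of -1.58 to -0.26, and did not pass (limma, adjusted p = 0.0956). Groups that did not overlap, with the combination lower, were found for 12.9% of genes in this contrast. The call was near the threshold: the adjusted p in limma was 0.0453 with median-ratio scaling, 0.0472 without model library 1, and 0.120 without model library 2, where the difference was -0.59. Median-ratio scaling called 1603 of 14485 genes in this contrast, against 565 in the main fit, and 193 were called without model library 1.

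No other transcript overlapped the exons of Lrrc23, and exons 1 to 7 were lower in every arthritic library than in any normal one. In reference exon 4 from the 5′ end the coverage per gigabase was 3.41, 3.78 and 3.68 in the combination libraries, 4.46, 11.9 and 7.96 in the model libraries, and 18.2, 18.5 and 18.9 in the normal libraries. Exon 2 had 3.91, 2.89 and 3.16 in the combination libraries, 4.84, 14.6 and 6.56 in the model libraries, and 21.4, 17.7 and 19.1 in the normal libraries. These exons separated all 3 groups. Exon 6 (chr4:157297584-157297720), which 4 of the 8 isoforms lack, had 1.68, 1.94 and 2.13 in the combination libraries, 2.09, 8.05 and 0.430 in the model libraries, and 13.9, 9.72 and 12.5 in the normal libraries. Exon 1 was nearly empty in every library, at 0.014 to 0.138 in the combination, 0.184 to 0.283 in the model and 0.366 to 0.410 in the normal libraries. In exon 8, which holds the 3′ end, normal library 2 had 3.14, within the model range of 3.11 to 4.29, and the combination libraries had 1.70 to 2.20.

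**Figure D4:**
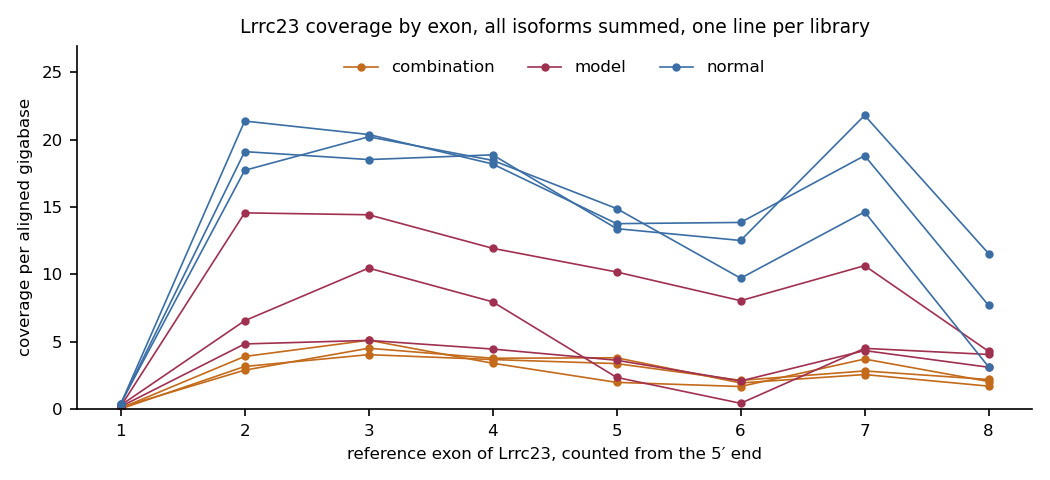
Coverage per aligned gigabase of the 8 reference exons of Lrrc23, 1 line per library, with all isoforms added and even coverage within an exon assumed. From exon 2 to exon 7 every normal library lies above every arthritic one, and model library 2 is the highest of the arthritic libraries.

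Among the isoforms, MSTRG.12654.8 carried most of the difference: 81.2% of that between the model and normal means and 71.8% of that between the combination and normal means. It was at 0, 0 and 0.458 TPM in the combination libraries, 0, 8.95 and 0.789 TPM in the model libraries, and 16.2, 8.07 and 17.1 TPM in the normal libraries. It led in the 3 normal libraries and in model library 2, which lay above normal library 2 for this isoform. MSTRG.12654.8 keeps the intron of 82 bases between reference exons 2 and 3 and includes exon 6.

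MSTRG.12654.7, which removes that intron and lacks exon 6, went the other way in part. It was at 0, 3.33 and 3.4 TPM in the combination libraries, 0, 0.375 and 8.51 TPM in the model libraries, and 1.45, 0.080 and 0 TPM in the normal libraries. It was the leading isoform in combination library 2 (68.8% of Lrrc23 TPM), combination library 3 (75.6%) and model library 3 (84.8%). In combination library 1 the lead was MSTRG.12654.1 (51.3%), and in model library 1 it was MSTRG.12654.4 (43.3%). No isoform led in all libraries of an arthritic group.

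The other isoforms varied from library to library within a group. MSTRG.12654.6 was at 3.18 TPM in model library 2 and 7.13 TPM in normal library 2, at 0.0083 TPM in combination library 3, and listed at 0 in the other 6 libraries. The reference transcript ENSRNOT00000051613 was at 1.17, 0.295 and 0 TPM in the combination libraries, 2.07, 0.336 and 0 TPM in the model libraries, and 0.737, 0.292 and 3.99 TPM in the normal libraries, which overlapped. MSTRG.12654.2 contributed 12% of the model minus normal difference, from 4.93, 1.65 and 0 TPM in the normal libraries, against 0, 1.57 and 0.360 TPM in the model libraries. Of the 8 isoforms, 3, 6 and 4 were above 0 in the combination libraries, 3, 8 and 5 in the model libraries, and 7, 8 and 4 in the normal libraries. For MSTRG.12654.8, combination minus model was -1.20 ± 0.76 (SE) over transcripts, and for MSTRG.12654.7 it was 0.18 ± 0.94 (limma, adjusted p = 0.481 and 0.954).

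Structure was compared by summing isoforms. Those that include exon 6 held 100, 20.9 and 24.2% of Lrrc23 TPM in the combination libraries, 100, 65.7 and 8.90% in the model libraries, and 73.0, 53.8 and 100% in the normal libraries. Those that keep the short intron held 25.8, 13.0 and 10.2% in the combination libraries, 43.3, 62.5 and 10.6% in the model libraries, and 67.1, 48.3 and 75.5% in the normal libraries. The groups overlapped for exon 6, while for the intron the combination libraries were below the normal ones and model library 2 lay among the normal libraries. Coverage allotted to the intron was 0.970, 0.365 and 0.344 in the combination libraries, 1.44, 2.74 and 0.721 in the model libraries, and 4.08, 3.49 and 4.23 in the normal libraries. These values are averages over the merged exon of the isoforms that keep the intron. They restate the allotment among isoforms and are no separate measure of the intron.

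**Figure D5:**
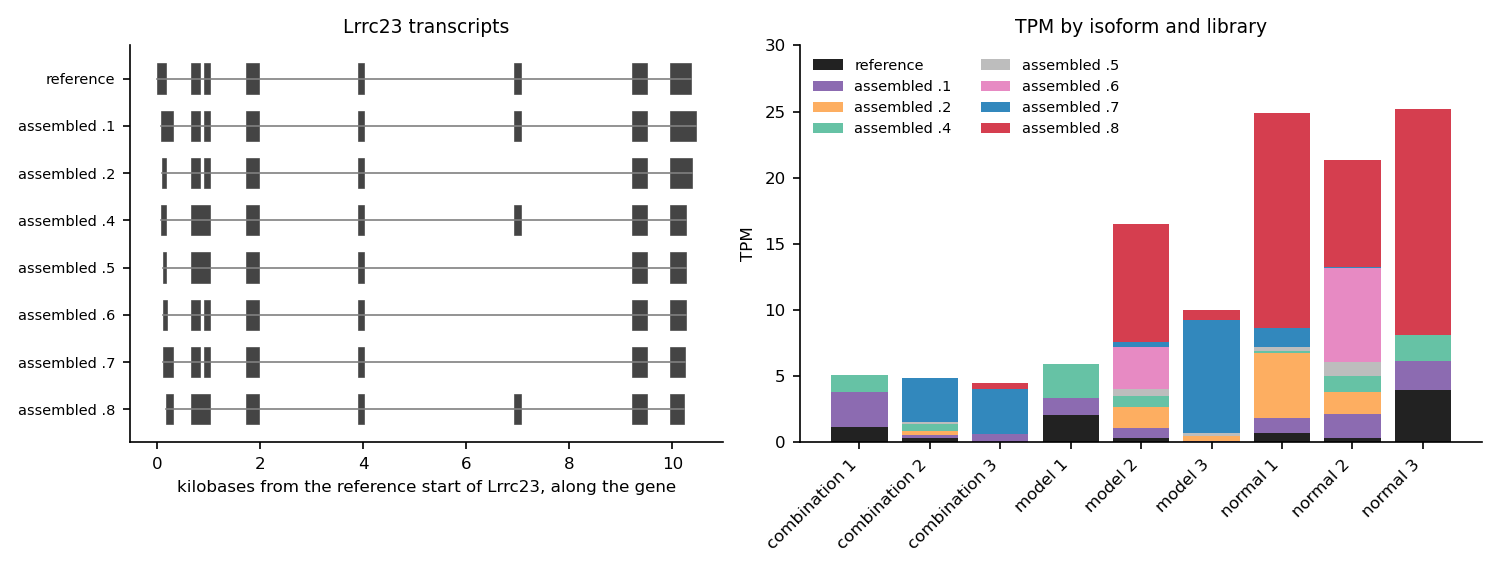
Left, exons (boxes) of the 8 Lrrc23 isoforms in kilobases from the reference start, along the direction of the gene. Right, TPM of each isoform stacked by library; MSTRG.12654.8 leads in the 3 normal libraries and model library 2, and MSTRG.12654.7 in combination libraries 2 and 3 and model library 3.

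Other genes of motile cilia were hardly expressed. Of 30 radial spoke and axoneme genes 15 were matched by name, and Rsph3, a radial spoke protein that also anchors protein kinase A, was the only one past the filter. It averaged 1.67 ± 0.35 TPM in the combination, 1.38 ± 0.11 in the model and 1.68 ± 0.20 in the normal group (SD, n = 3 each) and passed in no contrast (limma, adjusted p from 0.567 to 0.975). The 15 genes summed to 4.06 to 5.41 TPM in the combination, 3.19 to 3.24 in the model and 3.72 to 4.14 in the normal libraries. Dnajb13, a radial spoke chaperone under the filter, was at 0.645 to 0.980 TPM in the combination, 0.334 to 0.462 in the model and 1.01 to 1.29 in the normal libraries; it was singled out after its values were seen.

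Of 20 genes of basal bodies and multiciliated cells 14 were matched, 12 were tested, and none passed in any contrast, where the share over all genes was 4.2% for model against normal, 3.9% for combination against model and 3.62% for combination against normal. Their median log2 difference was 0.10, 0.08 and -0.12 in these contrasts, beside -0.01, 0.03 and 0.04 over all genes. Mns1, a structural protein of motile cilia, averaged 1.42 ± 0.38 TPM in the combination, 2.86 ± 0.88 in the model and 1.11 ± 0.084 in the normal group (model minus normal 0.85 ± 0.22, limma, adjusted p = 0.0604). Rfx3, a factor that binds X-boxes, averaged 4.84 ± 1.29 TPM in the combination, 4.25 ± 0.81 in the model and 7.22 ± 0.77 in the normal group (model minus normal -0.66 ± 0.21, limma, adjusted p = 0.102). Pcm1, a protein of centriolar satellites, had a combination minus model difference of 0.60 ± 0.17 (limma, adjusted p = 0.0725).

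Of 12 other amine oxidases listed, 10 were matched and only 3 were tested. None of the 3 was called in any contrast, where 3.62 to 4.2% of all genes were, so the count says nothing about the family. Smox, spermine oxidase, averaged 29.9 ± 6.14 TPM in the combination, 67.2 ± 24.9 in the model and 31.2 ± 3.45 in the normal group. Its difference was 1.02 ± 0.28 for model minus normal and -1.09 ± 0.28 for combination minus model (limma, adjusted p = 0.0699 and 0.0602). Il4i1, a secreted oxidase of amino acids made by myeloid and B cells, was at 4.77 ± 2.26 TPM in the combination, 1.65 ± 0.22 in the model and 1.80 ± 0.36 in the normal group. Maoa, Maob and the lysyl oxidases were under the filter.

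Markers of the cells that usually make Aoc3 did not separate the normal libraries from the others. Endothelial markers (8 of 10 matched) summed to 15.4 to 26.2 TPM in the combination, 10.8 to 16.8 in the model and 16.7 to 20.2 in the normal libraries, most of it Vwf, which platelets hold too. Cdh5, the cadherin of endothelial junctions, was at 0.081 TPM or less in every library and at 0 in 4, and Emcn was at 0 in 7. Adipocyte markers (6 of 8 matched) summed to 0.712 to 2.02 TPM in the combination, 0.156 to 0.240 in the model and 0.123 to 0.656 in the normal libraries, with Adipoq at 0 in 3 libraries. Smooth muscle and pericyte markers (8 of 8 matched) summed to 5.60 to 9.57 TPM in the combination, 4.13 to 5.71 in the model and 4.81 to 6.51 in the normal libraries. Only Vwf, Tie1 and Tagln were tested, and at a share of 3.62 to 4.2% over all genes their lack of calls is no result about these cells.

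Of 7 neutrophil markers, all matched, 2 were tested, and S100a8 was called against the normal group in both arthritic groups (4.2% of all genes were called for model and 3.62% for combination against normal). S100a9 passed in no contrast. The 7 summed to 4.37 to 6.85 TPM in the combination, 0.427 to 8.47 in the model and 13.9 to 33.2 in the normal libraries, nearly all from S100a8 and S100a9, the subunits of calprotectin. S100a8 averaged 1.29 ± 0.22 TPM in the combination, 1.1 ± 1.26 in the model and 7.98 ± 2.54 in the normal group and fell in both arthritic groups, by 1.94 for combination minus normal and by 2.23 for model minus normal (limma, adjusted p = 0.0431 and 0.0295). The granule genes Mpo, Elane, Camp and Ltf were at 0.446 TPM or less in all libraries. Elane was at 0.054 to 0.256 TPM in the combination, 0 to 0.025 in the model and 0 to 0.092 in the normal libraries, and Mpo and Camp overlapped between groups. Of 7 cytotoxic and NK markers 4 were tested and 1 was called, in the model against normal contrast (4.2% of all genes). Klrd1, a receptor of NK and cytotoxic cells, fell in the model group, to 8.21 ± 3.15 TPM, against 31.2 ± 6.41 TPM in the normal group (limma, adjusted p = 0.027). In the combination group Klrd1 averaged 15.8 ± 6.58 TPM. Every combination library lay below the normal ones, but the difference did not pass (limma, adjusted p = 0.108). Prf1, the pore-forming perforin, was at 28.6 to 43.5 TPM in the combination, 18.3 to 34.3 in the model and 26 to 49.5 in the normal libraries, and Nkg7 averaged 1.31 ± 0.65 TPM in the combination, 0.906 ± 0.564 in the model and 0.928 ± 0.551 in the normal group; both overlapped. The part of these cells in the values of Bbof1, Aoc3 and Lrrc23 was not tested.

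The other blood cell markers followed different orders. Of 6 monocyte genes tested, 4 rose in the combination against the normal group, where 2.04% of all genes rose, among them Csf1r, the receptor for macrophage growth factor, at 22.3 ± 6.57 TPM in the combination, 3.34 ± 0.92 in the model and 3.67 ± 4.00 in the normal group. It also rose against the model group, by 2.41 ± 0.55 (limma, adjusted p = 0.049). All 3 platelet genes tested rose in the combination against both other groups (2.02% of all genes rose against the model group), such as Gp1bb, a platelet adhesion receptor subunit, at 12.4 ± 2.45 TPM in the combination, 2.81 ± 0.43 in the model and 1.97 ± 1.08 in the normal group. None of the 7 T cell, 6 B cell and 3 erythroid markers tested passed in any contrast, where 3.62 to 4.2% of all genes did. Hba-a2, a haemoglobin subunit, averaged 347 ± 223 TPM in the combination, 4986 ± 5149 in the model and 357 ± 385 in the normal group.

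Of 29 neighbouring genes tested, 1 was called in each contrast, near the share over all genes (4.2% for model against normal, 3.9% for combination against model and 3.62% for combination against normal). Within 100 kilobases of Bbof1 lay 8 named genes, of which 6 were tested and none passed in any contrast. Zfp410, a zinc finger factor, averaged 12.1 ± 2.79 TPM in the combination, 31.6 ± 17.7 in the model and 10.7 ± 0.158 in the normal group (model minus normal 1.35 ± 0.32, limma, adjusted p = 0.0513). Aldh6a1, a mitochondrial dehydrogenase on the opposite strand whose span overlaps the 3′ end of Bbof1, averaged 4.89 ± 0.332 TPM in the combination, 6.56 ± 1.33 in the model and 7.60 ± 0.956 in the normal group. Around Aoc3 lay 19 named genes, of which 11 were tested. The reference transcripts of Psme3, a proteasome activator subunit, fell in the combination group, to 56.7 ± 8.60 TPM, against 98.3 ± 9.25 TPM in the model and 92.0 ± 6.58 TPM in the normal group (limma, adjusted p = 0.0351 and 0.0462). Psme3 shares the locus of Aoc3, so no assembled transcript is in its sum. MSTRG.3382.1 and MSTRG.3382.2, which each share 2617 exon bases with Psme3, were left out, and the part of allotment among transcripts was not tested.

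Around Lrrc23 lay 16 named genes, of which 12 were tested. Tpi1, the glycolytic triosephosphate isomerase, fell in the model group, to 2.52 ± 1.27 TPM, against 6.61 ± 0.622 TPM in the normal group (limma, adjusted p = 0.0492), and was at 3.14 ± 0.817 TPM in the combination group. Cd4 itself is 78399 bases away. Its model minus normal difference of -0.98 ± 0.29 did not pass (limma, adjusted p = 0.0857). Ptpn6, a phosphatase that dampens T cell receptor signals, averaged 22.2 ± 3.2 TPM in the combination, 33.4 ± 19.1 in the model and 52.3 ± 2.13 in the normal group and did not pass either (combination minus normal -1.21 ± 0.31, limma, adjusted p = 0.0642). Eno2, a neuronal enolase whose span lies 240 bases from Lrrc23, averaged 1.12 ± 0.175 TPM in the combination, 2.41 ± 0.975 in the model and 2.03 ± 0.414 in the normal group.

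Genes with the most similar profiles were ranked by the mean absolute difference of centred log2(TPM + 1) over the 9 libraries. For Lrrc23 the nearest of 10942 genes were Mllt3 (0.14), a reader of histone acylation, Cd96 (0.18), a receptor of T and NK cells, Chst11 (0.20), a chondroitin sulfotransferase, Itgb7 (0.20), a homing integrin, and Fmnl3 (0.21), a formin. Mllt3 was at 6.88, 6.96 and 5.46 TPM in the combination libraries, 8.79, 21.2 and 10.7 TPM in the model libraries, and 27.6, 22.9 and 27.2 TPM in the normal libraries. Model library 2 was thus the highest model library for Mllt3 as for Lrrc23, and it was so for the other 4 genes.

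For Aoc3, counted with MSTRG.3382.6, the nearest were LOC103693854 (0.20), Tsc22d3 (0.22), SNORA16 (0.24), Gpr155 (0.27) and Myc (0.28). Tsc22d3, the glucocorticoid-induced leucine zipper, was at 277, 233 and 362 TPM in the combination libraries, 321, 282 and 282 TPM in the model libraries, and 603, 899 and 859 TPM in the normal libraries. For Bbof1 the likeness was looser, with AABR07012592.1 (0.48), Trbc2 (0.53), S100a8 (0.60), S100a9 (0.62) and Pnpla6 (0.64) the nearest. Trbc2, a constant segment of the T cell receptor beta chain, was at 19.7, 20.9 and 9.01 TPM in the combination libraries, 6.82, 6.43 and 5.11 TPM in the model libraries, and 34.1, 35.4 and 31.0 TPM in the normal libraries. These lists describe the 9 libraries and carry no test.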

How the data were processed

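Total RNA of 9 libraries was made with an NEBNext Ultra RNA kit, per the labels' protocols. The submitters' processing notes name bcl2fastq, HISAT2 and the build rn6, without versions. The levels of 1 merged transcript set were then estimated in each library by StringTie 1.3.3b, per the file headers. The deposited values, as the authors computed them, are TPM, FPKM and coverage per transcript and coverage per exon, held as text attributes (unit other). They divide reads among overlapping transcripts, so isoform levels are estimates.

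From these, transcript TPM was summed to genes: all transcripts with a reference name, plus assembled transcripts of a locus that held only that name. For Aoc3, whose locus held 4 names, a sum by exon overlap was also made. Aligned depth is the ratio of coverage to FPKM. Exon coverage was divided by it and summed over transcripts, assuming even coverage inside an exon.

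Genes (14485) and transcripts (36340) averaging at least 1 TPM entered limma 3.58.1 (R 4.3.3) as log2(TPM + 1). All 9 libraries shared 1 fit with a mean for each group and a variance trend (6 residual degrees of freedom, prior 3.2), and Benjamini-Hochberg adjusted p-values under 0.05 were called. Fold changes of low genes are understated on this scale. The fitting step was tested on simulated data. Tables were made in Python 3.11.15 with pandas 2.3.3, numpy 2.4.6 and scipy 1.17.1, and figures with matplotlib 3.10.9. No counts were used, so no counting intervals are given.

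The 3 genes and the gene lists were chosen with earlier results of these data known. Genes were named by rule: the 3 genes, tested neighbours within 100 kilobases, up to 4 called genes of each list or else the 2 of smallest p, and for each of the 3 genes the 5 nearest profiles; some were left out of the text. Same-numbered libraries did not deviate together (correlations from -0.12 to 0.067), so the numbers were not used as pairs. No 2 libraries were copies (highest correlation 0.961). Alternatives were other pseudocounts, filters, FPKM, median-ratio scaling, 2-group fits, a replicate block, reference transcripts only, exon overlap, and each library left out.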

Additional observations from a re-analysis of the deposited data

How the results depend on the processing

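The values of Bbof1 depended most on which transcripts were counted. Model minus normal for Bbof1 was -2.76 on the log2(TPM + 1) scale; it was 0.39 with reference transcripts only and 0.28 with the opposite-strand transcript added, and -3.68 and -1.47 with pseudocounts of 0.1 and 5. Combination minus normal for Bbof1 was 0.052, -0.39, -3.31 and -1.29 under the same 4 settings, against -2.40. Combination minus model for Bbof1 was -0.67 with the opposite-strand transcript added. Sums with that transcript also depend on transcript length. Coverage of the shared bases on both strands was on average lower in the model than in the normal libraries. For Aoc3 by the rule, both contrasts to normal were -0.09; they were -0.70 and -0.018 with pseudocounts of 0.1 and 5, -0.054 on FPKM, and -1.86 (model) and -1.66 (combination) with exon overlap. For Lrrc23, reference transcripts only gave -0.48 for model minus normal and -0.66 for combination minus normal, and a pseudocount of 5 gave -1.55 for the second. Combination minus model for Lrrc23 passed with median-ratio scaling (-0.97, adjusted p = 0.0453 in limma), a setting that called 1603 genes against 565. Its adjusted p ranged from 0.0453 to 0.211 over 19 alternatives.

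Leaving out 1 library at a time gave -2.94 to -2.56 (model) and -3.05 to -2.07 (combination) for Bbof1 minus normal, -0.09 to -0.08 for Aoc3 in both, and -1.50 to -0.83 (model) and -2.16 to -2.05 (combination) for Lrrc23. For combination minus model it gave -0.29 to 0.70 for Bbof1, -1.26 to -0.59 for Lrrc23, -0.0008 to 1.13 for MSTRG.14632.3 and 0.15 to 0.22 for MSTRG.3382.6. The calls over all genes were unstable: 18 to 2654 for model minus normal, 20 to 1187 for combination minus model and 23 to 1438 for combination minus normal, where all 9 libraries gave 609, 565 and 525. In that order of contrasts, no filter gave 80, 150 and 168, FPKM 1206, 1430 and 1295, median-ratio scaling 1339, 1603 and 1408, fits of only the 2 groups 90, 28 and 1234, and reference transcripts only 186, 142 and 81; a filter at 5 TPM gave 305 in the last contrast. With the replicate number as a block the counts were 69, 10 and 21; the numbers share no stated source, and the block is not a pairing. The causes were not tested.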
